A study of Rattus norvegicus with 30 samples.

Results

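Hearts of rats given isoproterenol were compared with hearts of vehicle-treated rats at 72 h after dosing, over every probe set of an Affymetrix rat whole-genome array (RAT230_2). The arrays were chosen by their titles: 5 labelled isoproterenol and 3 labelled vehicle at 72 h, together 8 of the 30 arrays of the series. The series followed myocardial RNA at 4 times after a single administration of isoproterenol hydrochloride or of vehicle to male Crl:Wi(Han) rats, an outbred Wistar stock. The isoproterenol arrays carry a dose of 0.5, with the unit printed as mg/kg/ml in their titles, and the vehicle arrays a dose of 0. The array labels give the last time as 72 h, whereas the design text of the series names an earlier last time, and the array labels were followed. The sources used here give neither age nor route of dosing, and no allele or other agent is named for either group. The labels call the arrays biological replicates without saying that each came from a separate animal, so the p-values may measure only the spread between these samples.

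Isoproterenol is an agonist of the beta-adrenergic receptors, which raise the rate and force of the heartbeat through cyclic AMP. At high doses it kills scattered cardiomyocytes, and in the days that follow macrophages clear the dead muscle while fibroblasts divide, turn into contractile myofibroblasts and lay down collagen. Surviving cardiomyocytes re-express genes of the fetal heart and lower the genes with which they burn fatty acids.

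Levels are given as normalized intensity, which is the deposited linear intensity after quantile normalization of the 30 arrays. Changes are differences of mean log2(intensity + 16) between isoproterenol and vehicle, with their standard error after ±. A gene is said to have risen or fallen where its adjusted p from limma, a linear model fitted across all probe sets, was under 0.05. In every series of values below the vehicle arrays stand in the order of their replicate numbers 1 to 3, and the isoproterenol arrays in the order 1 to 5.

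The arrays carried the markers of heart muscle. Myl2, the ventricular myosin light chain, read 8899 to 9378 on the vehicle arrays and 8605 to 9802 on the isoproterenol arrays. Normalized intensity of Myh6, the adult alpha myosin heavy chain, was 9708 to 10768 on the vehicle arrays and 9314 to 10136 on the isoproterenol arrays, and Tnnt2, cardiac troponin T, read 10136 to 11046 and 9802 to 10410. Myl7, the atrial myosin light chain, read 16.1, 320 and 42.5 in vehicle and 750, 23.4, 3.82, 10.0 and 20.2 in isoproterenol, in the order of the replicates. Myl4, the atrial essential light chain, read 23.5, 199 and 49.4 in vehicle and 775, 53.5, 111, 62.9 and 86.2 in isoproterenol. Vehicle replicate 2 and isoproterenol replicate 1 were the highest of their groups for both, and the part of this in the position of these arrays, given next, was not tested. Of 9 atrial markers tested, Nppa, atrial natriuretic peptide, was called higher and 3 were called lower, the transcription factor Tbx5, the potassium channel Kcnj3 and Stard10, with only 1 lower without vehicle replicate 3. Their median change was -0.609 on the log2 scale, and 0.376 without vehicle replicate 2, where 2 were called higher. Their summed intensity was 1432 to 3720 on the vehicle arrays and 6239 to 11023 on the isoproterenol arrays, of which Nppa alone gave 618 to 2221 and 3840 to 10275. The 3' minus 5' difference of the beta-actin control probe sets, a measure of RNA and labelling length, was 1.35 ± 0.556 (log2, SD, n = 3) in vehicle and 1.35 ± 0.221 (SD, n = 5) in isoproterenol (two-sided exact permutation p = 1.0). It was 0.97, 1.98 and 1.08 on the vehicle arrays and 1.63, 1.5, 1.12, 1.35 and 1.14 on the isoproterenol arrays, so vehicle replicate 2 and isoproterenol replicate 1 were again the highest of their groups, and the part of this in the results was not tested. For GAPDH it was 0.358 ± 0.035 (SD, n = 3) and 0.42 ± 0.0479 (SD, n = 5; two-sided exact permutation p = 0.107). The labels number the vehicle arrays 19 to 21 and the isoproterenol arrays 58 to 62: the groups differ in array number as well as in treatment, and these cannot be told apart.

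An array of each group stood apart from the rest of its group. Isoproterenol replicate 1 had a mean correlation of 0.962 with the vehicle arrays and 0.948 with the other isoproterenol arrays, whereas the other isoproterenol arrays had 0.898 to 0.936 and 0.96 to 0.969. Vehicle replicate 2 had a mean correlation of 0.955 with the other vehicle arrays and 0.938 with the isoproterenol arrays. To place each array, the genes called without it were used, with the mean of the vehicle arrays set to 0% and the mean of the isoproterenol arrays to 100%. Over the 1995 genes called higher without isoproterenol replicate 1, that array lay at a median of 32.1%, and over the 1574 called lower it lay at 22.6%. Isoproterenol replicate 3 lay farthest on the other side, at 147% and 163%, and vehicle replicate 2 lay at 38% and 51.9%. The place of isoproterenol replicate 1 differed between genes, and results are given with and without it where it moved them.

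**Figure D1:**
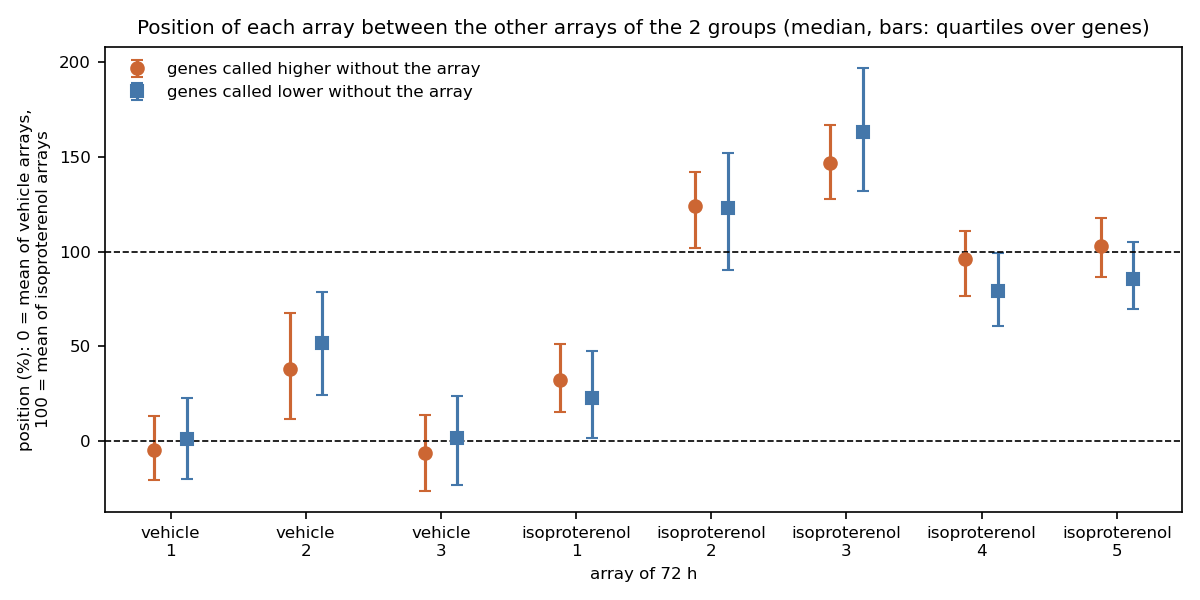
Position of each 72 h array between the mean of the vehicle arrays (0%) and the mean of the isoproterenol arrays (100%), over the genes called higher and the genes called lower without that array; points are medians and lines span the quartiles. Isoproterenol replicate 1 lies at 32.1% and 22.6%, near vehicle replicate 2 at 38% and 51.9%, and isoproterenol replicate 3 lies highest at 147% and 163%.

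Of 24292 probe sets tested, 4333 (17.8%) were called at 72 h, 2277 higher (9.37%) and 2056 lower (8.46%). With the brightest probe set for each gene, 1650 of 12451 genes rose (13.3%) and 1085 fell (8.71%), and the median change of all genes was 0.006. The rises were the larger changes. More than 2-fold rises numbered 751 genes against 125 falls of that size, 121 genes rose more than 4-fold, and the deepest fall was 3.81-fold. All isoproterenol arrays lay above all vehicle arrays in 1467 genes (11.8%) and below them in 914 genes (7.34%). Without isoproterenol replicate 1, 1995 of 12428 genes rose (16.1%) and 1574 fell (12.7%). Without vehicle replicate 2, 4604 probe sets were called, 2388 higher and 2216 lower.

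The falls depended on the normalization and the rises much less. Without normalization the median change over all probe sets was 0.356, and 1469 of the 1650 risen genes but 4 of the 1085 fallen genes kept their call (Prkaa2, Slc3a1, LOC100909739 and Cped1). With each array centred on its median instead, 1528 and 241 kept it. Leaving out single arrays, 879 of the risen and 325 of the fallen genes were called in all 8 such fits. A fall below is therefore a fall relative to the other genes on the same arrays.

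The genes with the largest rises included products of activated fibroblasts and macrophages. Postn (probe set 1373911_at), periostin, a matricellular protein of healing myocardium, read 59.7, 393 and 61.1 in vehicle and 719, 8442, 8855, 7596 and 7680 in isoproterenol. The groups did not overlap, with vehicle replicate 2 the highest of its group and isoproterenol replicate 1 far below the other 4. The change was 5.23 ± 0.54, a 37.6-fold rise (limma adjusted p = 8.81e-07), and 5.94 without isoproterenol replicate 1.

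Cthrc1 (1384063_at), a secreted protein of collagen-producing fibroblasts, read 43, 22.6 and 8.39 in vehicle and 47.8, 1613, 2063, 1674 and 1285 in isoproterenol. Isoproterenol replicate 1 lay just above the highest vehicle array, and the other 4 lay far above it. The rise of 4.50 ± 0.63 was 22.6-fold (limma adjusted p = 1.39e-05), but 2 of the vehicle arrays lay under the detection floor used here, an intensity of 23, so the fold depends on the added constant and was 38.5 with a constant of 1 in place of 16. Gpnmb (1368187_at), a membrane glycoprotein of lipid-laden macrophages, read 62.6, 119 and 64.7 in vehicle and 270, 2924, 3212, 2511 and 2450 in isoproterenol. These groups did not overlap, and the rise was 18.5-fold (4.21 ± 0.47, limma adjusted p = 9.62e-07).

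Macrophage surface and defence genes made up much of the rest of the 15 largest rises among genes whose groups did not overlap. Tnc (14.0-fold) and Ltbp2 (10.9-fold), given below, also rose this far. Their groups overlapped through isoproterenol replicate 1, so they are not among the 15. Mpeg1, a pore-forming protein of macrophages, rose 12.5-fold by its brightest probe set, although its probe sets ranged from 0.85 to 3.65. Cybb, the catalytic subunit of the phagocyte NADPH oxidase, rose 10.7-fold, with probe sets from 1.44 to 3.42. Slamf9 (12.6-fold), Clec7a, the beta-glucan receptor dectin (10.5-fold), and Fcrl2 (10.4-fold) rose from vehicle levels with arrays under the floor, and with a constant of 1 their folds were 23.5, 27.5 and 23.2. Slfn4, a Schlafen family gene of myeloid cells, rose 11.9-fold. Reg3b (1368238_at), a secreted lectin, read 13.7, 297 and 29.3 in vehicle and 299, 390, 954, 1097 and 3360 in isoproterenol. Its groups met almost exactly, at 297 on vehicle replicate 2 and 299 on isoproterenol replicate 1, and its rise of 3.52 ± 0.64 had an adjusted p of 0.000263 by limma.

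Car3, a carbonic anhydrase, rose 10.2-fold with probe sets from 1.95 to 3.34, and the other genes of that group belonged to the stroma, the matrix or the interferon response. Lox, the enzyme that crosslinks collagen and elastin, rose 8.63-fold. Thy1, a surface antigen of fibroblasts and T cells, rose 8.21-fold and Spp1, osteopontin, 9.22-fold, each from vehicle levels with at least 1 array under the floor and with folds of 15.8 and 21.2 for a constant of 1. Mx1, a GTPase with antiviral activity, rose 9.09-fold and is described with the interferon genes.

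**Figure D2:**
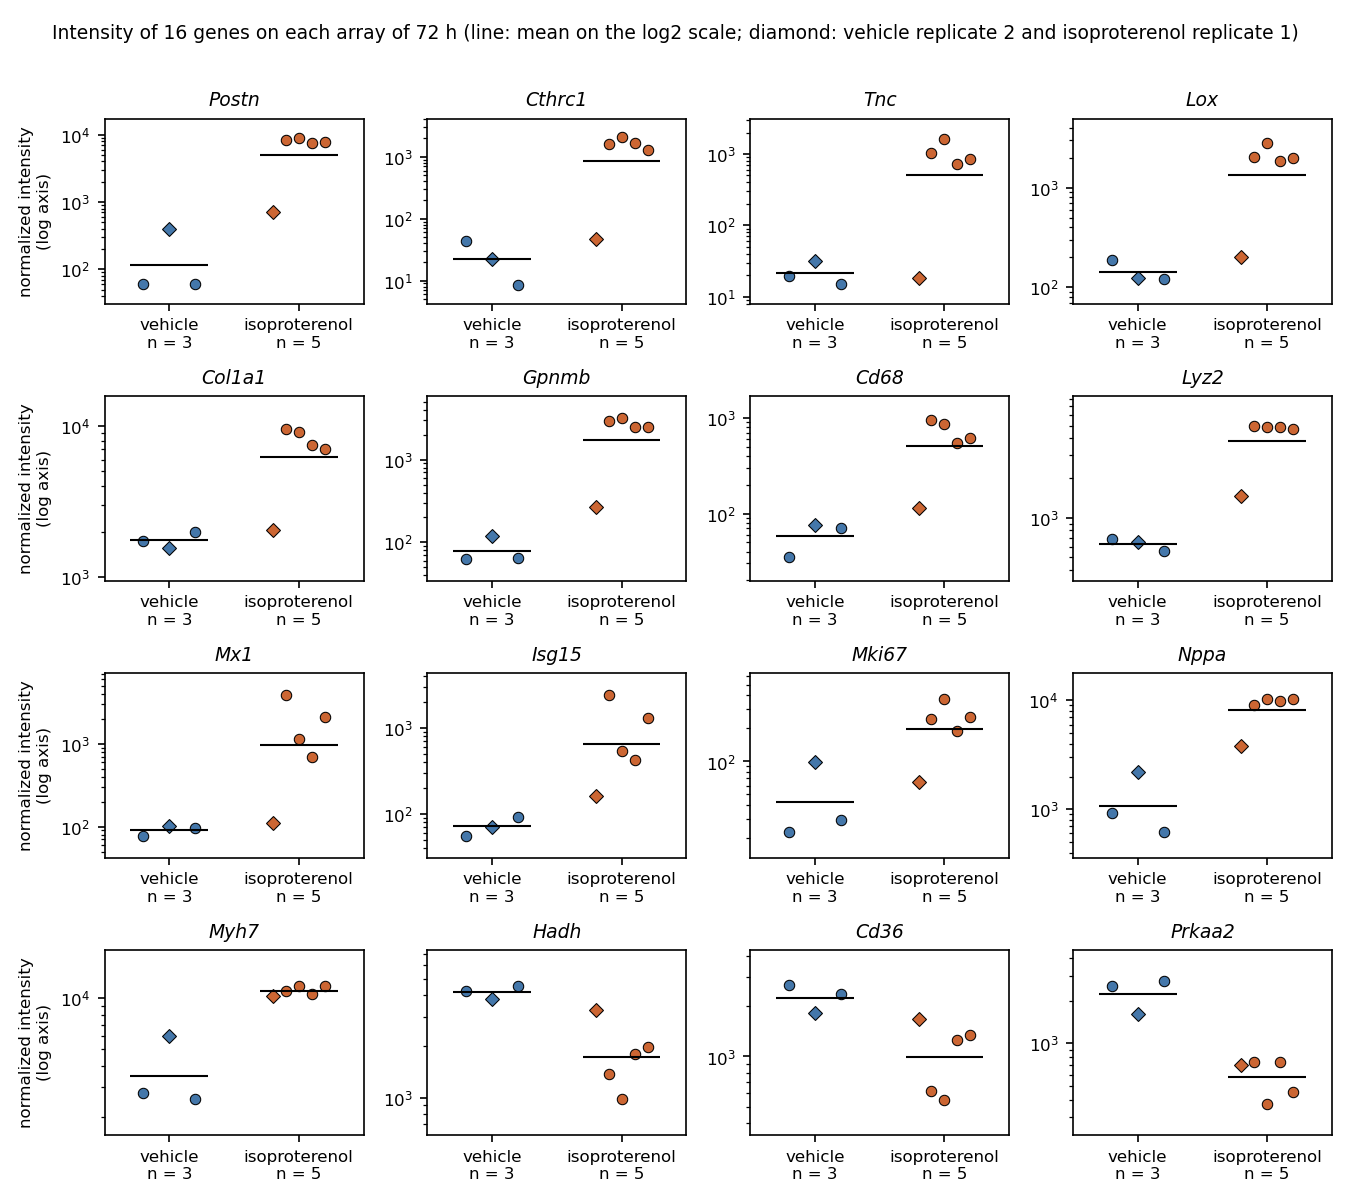
Normalized intensity (log axis) of 16 genes on the 3 vehicle and 5 isoproterenol arrays at 72 h; lines mark group means on the log2 scale, and diamonds mark vehicle replicate 2 and isoproterenol replicate 1. For Postn, isoproterenol replicate 1 reads 719 where the other isoproterenol arrays read 7596 to 8855, and for Prkaa2 all isoproterenol arrays lie below the vehicle arrays.

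Fibrillar collagens and the matricellular proteins rose together. Of 18 collagen chains tested, 14 rose (77.8%), the other 4 did not pass, and the median change was 1.64. Col1a1 (1388116_at), the alpha 1 chain of type I collagen, read 1735, 1552 and 1997 in vehicle and 2046, 9599, 9145, 7484 and 6992 in isoproterenol. Isoproterenol replicate 1 lay just above the highest vehicle array and the other 4 far above. The change was 1.82 ± 0.33, 3.54-fold (limma adjusted p = 0.000272), and 2.23 without isoproterenol replicate 1.

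Col1a2 rose by 2.19 ± 0.31, but isoproterenol replicate 1, at 2296, lay below vehicle replicate 2, at 2434. Col3a1, the type III chain of early scar, read 4133 to 5806 in vehicle and 7220 to 11253 in isoproterenol, a rise of 1.09 ± 0.17. Among the less abundant chains Col8a2 rose 7.11-fold, Col8a1 6.93-fold, Col12a1 5.67-fold and Col5a2 5.49-fold, and the probe sets of Col12a1 ranged from 0.788 to 2.50. Col4a1, a basement membrane chain, read 1850 to 2361 in vehicle and 1877 to 3340 in isoproterenol and did not pass (0.38 ± 0.16, limma adjusted p = 0.0897).

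Of 18 enzymes and chaperones that fold, trim and crosslink collagen, 17 rose (94.4%), with a median of 1.00. Lox (1368171_at) read 189, 125 and 120 in vehicle and 200, 2024, 2796, 1868 and 2006 in isoproterenol. Isoproterenol replicate 1 was close to vehicle replicate 1, and the groups did not overlap. Loxl1, a paralogue of Lox, rose 7.96-fold, and Pcolce, which enhances cleavage of the procollagen tail, 5.36-fold. P4ha3, a prolyl hydroxylase subunit, rose 3.98-fold, with every vehicle array under the floor, isoproterenol replicate 1 at 7.77 inside the vehicle range, and a fold of 9.61 with a constant of 1.

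Of 24 matricellular proteins, which signal to cells from the matrix, 18 rose (75%), with a median of 1.85. Tnc (1373401_at), tenascin C, read 19.6, 31.3 and 15.1 in vehicle and 18.3, 1032, 1635, 734 and 859 in isoproterenol. Isoproterenol replicate 1 lay within the vehicle range, and the other 4 lay far above its top. The rise of 3.80 ± 0.64 (limma adjusted p = 0.000115) became 4.78 without that array. With a constant of 1 in place of 16 its fold was 21.1 in place of 14.0, since 2 vehicle arrays were under the floor. Ccn2, connective tissue growth factor, read 343 to 820 in vehicle and 1183 to 4751 in isoproterenol and rose 5.17-fold. Fn1, fibronectin, rose 7.61-fold and Fndc1, a secreted protein with fibronectin repeats, 8.03-fold. Sparc, a collagen-binding protein, read 3147 to 4639 and 3050 to 7280 and did not pass (0.54 ± 0.20, limma adjusted p = 0.0667).

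Of 9 small leucine-rich proteoglycans, which bind collagen fibrils, 4 rose (Aspn, Bgn, Lum and Prelp), with a median of 0.40. Bgn (1367594_at), biglycan, read 604, 528 and 496 in vehicle and 789, 4064, 3625, 2870 and 2593 in isoproterenol, a rise of 2.14 ± 0.28 with no overlap. Aspn, asporin, rose 7.80-fold and Lum, lumican, 2.27-fold. Prelp rose by 0.61 ± 0.19, and this call was lost in 4 of the 8 fits without 1 array (highest limma adjusted p = 0.168 without vehicle replicate 1). Dcn, decorin, read 4304 to 4787 in vehicle and 5275 to 6144 in isoproterenol. The groups did not overlap, yet the difference of 0.36 ± 0.13 did not pass (limma adjusted p = 0.0636).

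Elastic fibre and basement membrane genes rose in 11 of 18 (61.1%, median 0.76). Ltbp2 rose by 3.45 ± 0.60, although isoproterenol replicate 1, at 93.8, lay below vehicle replicate 2, at 109. Efemp2, a fibulin, rose 6.35-fold and Fbn1, fibrillin, 5.34-fold. Eln, elastin, did not pass (0.46 ± 0.22, limma adjusted p = 0.156).

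Matrix proteases and their inhibitors moved in both directions, with 12 of 19 higher (63.2%, beside 13.3% of all genes) and 2 lower (10.5%, beside 8.71%). Timp1 (1367712_at), an inhibitor of metalloproteinases, read 95, 158 and 69.8 in vehicle and 111, 1341, 2680, 1179 and 954 in isoproterenol. Isoproterenol replicate 1 lay within the vehicle range, and the rise was 2.90 ± 0.51 (limma adjusted p = 0.000199). The other two inhibitors that passed fell: Timp4, the form enriched in heart muscle, read 171 to 305 in vehicle and 42 to 138 in isoproterenol (-1.33 ± 0.27), and Timp3 read 1225 to 1435 and 754 to 1243 (-0.52 ± 0.17). The fall of Timp3 was lost in 5 of the 8 fits without 1 array, with a highest limma adjusted p of 0.0903 without vehicle replicate 2. Mmp14, the membrane collagenase, rose 4.28-fold without overlap, and Adamts5, an aggrecanase, 2.54-fold with overlapping groups and probe sets from 0.199 to 1.34.

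**Figure D3:**
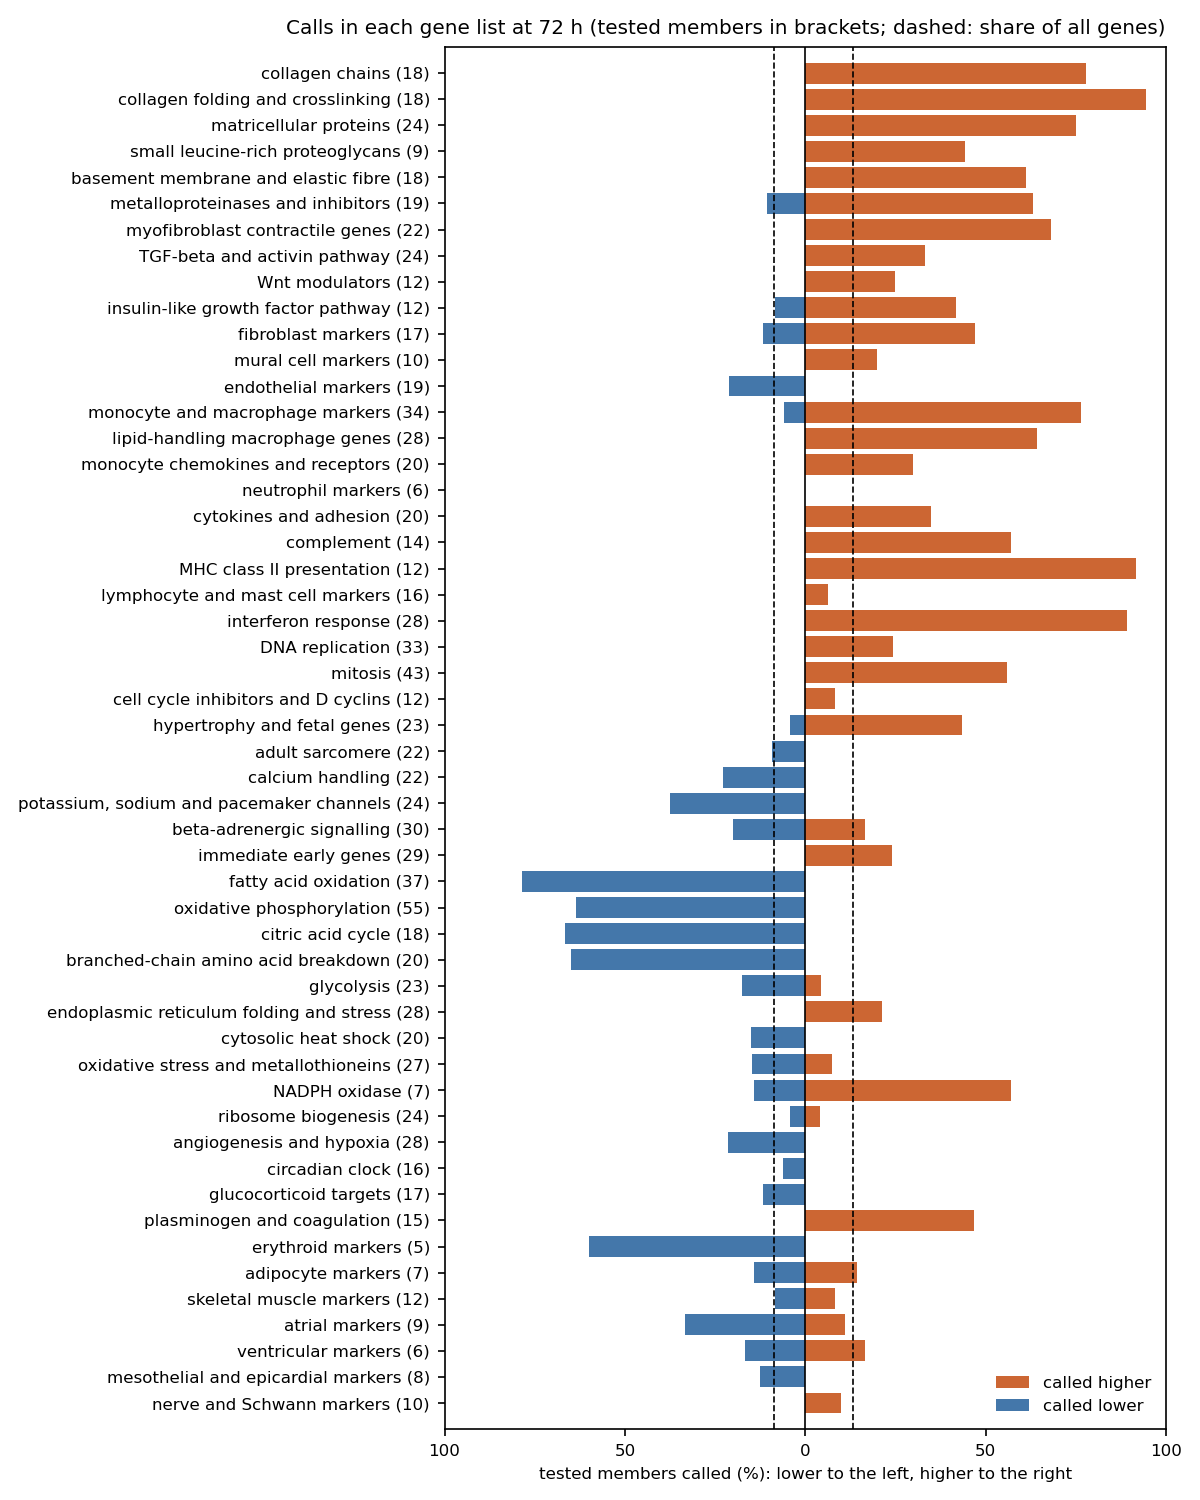
Percent of the tested members of each gene list that were called higher or lower at 72 h; dashed lines mark the shares of all genes, 13.3% higher and 8.71% lower. Collagen folding genes reach 94.4% higher and interferon response genes 89.3% higher, and fatty acid oxidation genes reach 78.4% lower.

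Genes of contractile fibroblasts rose in 15 of 22 (68.2%, median 0.90). S100a4, a calcium-binding protein of fibroblasts and leukocytes, rose 7.20-fold, Tagln, transgelin, 5.09-fold, and Tpm2, beta tropomyosin, 4.97-fold, with probe sets of Tpm2 from 1.06 to 2.31. Acta2 (1370857_at), smooth muscle alpha actin, read 434, 305 and 230 in vehicle and 283, 925, 1163, 593 and 564 in isoproterenol. Isoproterenol replicate 1 lay within the vehicle range. Its change of 0.99 ± 0.34 was just called (limma adjusted p = 0.0434) and was lost in 6 of the 8 fits without 1 array, with the highest p of 0.228 without vehicle replicate 3.

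Fibroblast markers mostly rose or did not pass. Of 17 tested, 8 rose (47.1%, beside 13.3% of all genes) and 2 fell (11.8%, beside 8.71%), with a median of 0.36. The count lower was 3 without isoproterenol replicate 1. It was 0 without isoproterenol replicate 3, vehicle replicate 1 or vehicle replicate 2, and with arrays centred on medians. Summed intensity of the 17 markers was 15492 to 22290 on the vehicle arrays and 23817 to 31739 on the isoproterenol arrays. In heart tissue more cells of a type and more RNA per cell cannot be told apart, and this holds for every marker list here. The largest rises among the 17 were those of Thy1 (8.21-fold) and Mfap5 (3.61-fold, with overlapping groups). Pi16, a marker of adventitial fibroblasts, rose 2.38-fold without overlap. Fap and Clec3b are not among the 17. Fap, a surface protease of activated fibroblasts counted with the contractile genes, read 49.3, 87.1 and 44.8 in vehicle and 61, 516, 434, 303 and 218 in isoproterenol. Its rise was 1.85 ± 0.36, with isoproterenol replicate 1 inside the vehicle range. Clec3b, tetranectin, rose 5.82-fold without overlap. Gsn, gelsolin, did not pass (-0.33 ± 0.21, limma adjusted p = 0.311).

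The 2 fibroblast-list genes that fell were Vtn, vitronectin (-0.59 ± 0.18), and Wt1, an epicardial transcription factor (-0.69 ± 0.20). Neither held in every fit without 1 array, with highest limma adjusted p values of 0.0851 for Vtn without isoproterenol replicate 3 and 0.0778 for Wt1 without vehicle replicate 2, and Vtn changed by 0.028 without normalization. Of 10 mural cell markers 2 were called higher, beside 13.3% of all genes, and the list had a median of -0.139. The 2 were Pdgfrb, the receptor of pericytes and fibroblasts (0.80 ± 0.18, probe sets from -0.329 to 0.799), and Des, desmin (0.45 ± 0.11). Des was not called with arrays centred on medians (0.36, limma adjusted p = 0.108) or without normalization (0.71, limma adjusted p = 0.0684). Which cells carried the rise of Des was not tested.

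Growth factor genes rose in part. In the TGF-beta and activin pathway, the main inducer of myofibroblasts, 8 of 24 rose (33.3%, median 0.36), and 5 without vehicle replicate 1 or without vehicle replicate 3. Tgfb3 read 161 to 333 in vehicle and 408 to 1301 in isoproterenol and rose 3.51-fold. Ltbp3, which stores latent TGF-beta, rose 3.24-fold with overlapping groups. Tgfb1 read 201, 184 and 234 in vehicle and 230, 518, 598, 347 and 335 in isoproterenol. It overlapped through isoproterenol replicate 1, and its rise of 0.86 ± 0.27 (limma adjusted p = 0.0251) was lost in 5 of the 8 fits without 1 array, with the highest p of 0.089 without isoproterenol replicate 3.

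Of 12 Wnt modulators 3 rose: Sfrp4 by 1.92 ± 0.33, Sfrp2 by 1.80 ± 0.45 and the receptor Fzd2 by 1.25 ± 0.28. Sfrp2 lost its call without vehicle replicate 1 (limma adjusted p = 0.0902), and the probe sets of Sfrp4 ranged from -0.32 to 1.92, with 2 vehicle arrays of the brightest under the floor. In the insulin-like growth factor pathway 5 of 12 rose (41.7%, beside 13.3% of all genes) and 1 fell (8.33%, beside 8.71%). Igf1, the growth factor itself, read 488, 527 and 445 in vehicle and 742, 2143, 2713, 2169 and 2041 in isoproterenol, a 3.63-fold rise without overlap, and Igfbp6, a binding protein, rose 3.87-fold. The other three rises were smaller, Htra1 by 0.61 ± 0.14, Igf2r by 0.60 ± 0.17 and Igfbp7 by 0.43 ± 0.15. Igf2r and Igfbp7 were not called in some fits without 1 array (highest limma adjusted p 0.0727 and 0.131, both without vehicle replicate 2), so the count was 3 without isoproterenol replicate 3, vehicle replicate 2 or vehicle replicate 3. Igfbp5 fell by 1.07 on the log2 scale, with a limma adjusted p of 0.0595 without vehicle replicate 3.

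Monocyte and macrophage markers rose in 26 of 34 (76.5%, median 1.82), and their summed intensity was 6358 to 6599 on the vehicle arrays and 8169 to 24247 on the isoproterenol arrays. Ccr2, the receptor of inflammatory monocytes, was below the floor on every array. Lyz2 (1370154_at), lysozyme, read 682, 649 and 554 in vehicle and 1468, 5009, 4917, 4899 and 4725 in isoproterenol, a 6.01-fold rise (limma adjusted p = 9.34e-07). The groups did not overlap, and 4 isoproterenol arrays lay close together with replicate 1 far below. Cd68 (1375010_at), a lysosomal protein of macrophages, read 35, 75.4 and 69.8 in vehicle and 115, 959, 868, 543 and 617 in isoproterenol, a 7.13-fold rise. Aif1 rose 5.96-fold by its brightest probe set, with probe sets from -0.263 to 2.58. Cd163, the haemoglobin scavenger receptor of resident macrophages, read 23.3 to 70.1 and 46.5 to 91.9 and did not pass (0.67 ± 0.24, limma adjusted p = 0.0523).

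The 2 listed genes that fell were Cd36, a fatty acid transporter shared with cardiomyocytes, and Ncf1, an oxidase subunit (-1.24 ± 0.29). Ncf1 was not called without vehicle replicate 3 (limma adjusted p = 0.0688). The other oxidase subunits that rose beside Cybb were Rac2 by 1.52 ± 0.25, Cyba by 1.49 ± 0.30 and Ncf4 by 1.45 ± 0.31.

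Genes of lipid-handling macrophages rose in 18 of 28 (64.3%, median 0.81). Lgals3, galectin-3, read 199, 192 and 147 in vehicle and 230, 1721, 2408, 1616 and 1451 in isoproterenol, a 6.19-fold rise. Apoe, the lipoprotein made by these macrophages, rose 6.66-fold, and Pltp, a phospholipid transfer protein, 5.94-fold. Class II antigen presentation genes rose in 11 of 12 (91.7%, median 1.52). RT1-Da (1370883_at), a class II alpha chain, read 570, 385 and 477 in vehicle and 942, 2812, 3858, 3059 and 2816 in isoproterenol. The groups did not overlap, and isoproterenol replicate 1 was again the lowest of its group. RT1-Db1, the beta chain, rose 5.56-fold by a probe set that may also read its relatives, and Ctss, the protease that trims the invariant chain, 5.65-fold.

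Complement genes rose in 8 of 14 (57.1%, median 0.98). C1qa (1376652_at) read 159, 263 and 153 in vehicle and 445, 1431, 1443, 904 and 1331 in isoproterenol, a 5.14-fold rise without overlap. C5ar1, the anaphylatoxin receptor, rose 2.96-fold and Cfd, factor D, 3.01-fold with overlapping groups. Chemokines and their receptors rose in 6 of 20 (30%, median 0.41). Cxcl10, an interferon-induced chemokine, read 30, 18.9 and 30.1 in vehicle and 33.7, 1083, 232, 243 and 862 in isoproterenol, so that isoproterenol replicates 2 and 5 were the highest and replicate 1 sat just above vehicle. Ccl6 rose 3.74-fold and Cxcl16 2.44-fold. Ccl2, the monocyte attractant, read 57.9 to 102 in vehicle and 95.9 to 288 in isoproterenol, and its rise of 1.27 ± 0.41 was lost in 5 of the 8 fits without 1 array (highest limma adjusted p = 0.136 without vehicle replicate 1).

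Cytokine and adhesion genes rose in 7 of 20 (35%, median 0.44), among them Il18 (2.64-fold), Icam1 (2.49-fold) and the hyaluronan receptor Cd44 (2.05-fold). Leaving out vehicle replicate 1 left 3 of these, and leaving out vehicle replicate 3 left 4. Il6 stayed under the floor on all 8 arrays, with no array above 14.6.

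Other leukocytes gave little signal. Summed intensity of 9 neutrophil markers was 154 to 200 on the vehicle arrays and 122 to 163 on the isoproterenol arrays, 4 of the 9 were below the floor on every array, and S100a9 read 32 to 42.8 and 3.34 to 24.9 (-0.78 ± 0.35, limma adjusted p = 0.131). Limma called 0 of 6 neutrophil markers tested, against 2 higher and 1 lower at an unadjusted p under 0.05. Of 16 lymphocyte and mast cell markers tested, 1 rose, Lck, a kinase of T cells, by 0.52 ± 0.16, and it lost the call in 3 of the 8 fits without 1 array (highest limma adjusted p 0.0865 without vehicle replicate 3). The B cell markers Cd79b and Ms4a1 were below the floor on every array.

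Interferon-induced genes rose in 25 of 28 (89.3%, beside 13.3% of all genes), with a median of 1.55. In 22 of the 28, called or not, all isoproterenol arrays lay above all vehicle arrays, beside 11.8% of all genes. These genes answer type I and type II interferons through the factors STAT and IRF, which bind the interferon-stimulated response element of their promoters. That element was searched as GAAANNGAAA on both strands in the 250 bases before each gene's start in RefSeq (build GRCr8). It was present in 14 of the 23 tested members that had a promoter in the table (60.9%), in 13 of the 22 called higher among them, and in 902 of 27457 promoters in all (3.29%). The following promoter stretches are shown because they hold the match in 4 of the risen genes; capitals mark the match, which reads TTTCNNTTTC on the reverse strand, and the runs lie at chr1:241527252-241527321 on the + strand (Ifit3), chr1:205800053-205800122 on the - strand (Irf7), chr12:41330401-41330465 on the + strand (Oas1a) and chr2:234005666-234005726 on the + strand (Gbp2).
Ifit3: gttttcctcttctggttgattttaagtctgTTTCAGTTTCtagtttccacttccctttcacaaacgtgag
Irf7: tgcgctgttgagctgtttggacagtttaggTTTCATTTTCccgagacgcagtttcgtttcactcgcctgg
Oas1a: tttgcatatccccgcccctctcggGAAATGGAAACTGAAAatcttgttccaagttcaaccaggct
Gbp2: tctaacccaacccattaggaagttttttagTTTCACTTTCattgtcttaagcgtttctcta
The capitals in Oas1a hold 2 overlapping matches. A match describes the letters only and is not a measured binding site.

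The effectors of this response rose most on isoproterenol replicate 2. Mx1 (1371015_at) read 76.6, 101 and 96.6 in vehicle and 110, 3886, 1154, 688 and 2117 in isoproterenol. Isoproterenol replicate 1 sat just above vehicle, replicates 2 and 5 were highest, and the groups did not overlap. The change was 3.18 ± 0.56 (limma adjusted p = 0.000191), and 3.92 without isoproterenol replicate 1.

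Isg15 (1382314_at), a ubiquitin-like modifier, read 56, 71.4 and 92.2 in vehicle and 161, 2386, 535, 426 and 1297 in isoproterenol, a 7.63-fold rise without overlap. Irf7 (1383564_at), the factor that amplifies interferon production, read 248, 319 and 356 in vehicle and 518, 2902, 1846, 1308 and 2459 in isoproterenol, a 4.90-fold rise without overlap. Ifit3, which binds viral RNA, rose 6.36-fold, Ddx60, a helicase, 5.97-fold, Oas1a, an oligoadenylate synthetase, 4.63-fold, and Gbp2, a guanylate-binding protein, 3.75-fold.

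Mx2 behaved differently from array to array. It read 60.3, 73.1 and 199 in vehicle and 14.1, 2237, 682, 21 and 2834 in isoproterenol. Replicates 2, 3 and 5 lay above every vehicle array and replicates 1 and 4 below every one, and the difference did not pass (1.61 ± 0.96, limma adjusted p = 0.275).

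The order of the isoproterenol arrays was not the same for all groups of genes. The median difference from the vehicle mean over the interferon genes was 0.56, 2.47, 1.48, 1.17 and 1.89 on isoproterenol replicates 1 to 5, with replicate 2 highest. Over the collagen chains it was 0.45, 2.07, 2.31, 1.70 and 1.59, and over the macrophage markers 0.49, 2.19, 2.36, 1.68 and 2.10, with replicate 3 highest. Replicate 1 was the lowest of the 5 for each of these lists and above all 3 vehicle arrays, whose list medians ran from -0.17 to 0.21 for the collagen chains. Without isoproterenol replicate 1 the counts of risen genes were 15 of 18 collagen chains, 28 of 34 macrophage markers, 27 of 28 interferon genes and 31 of 43 mitosis genes, and without vehicle replicate 2 they were 13, 26, 25 and 22.

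**Figure D4:**
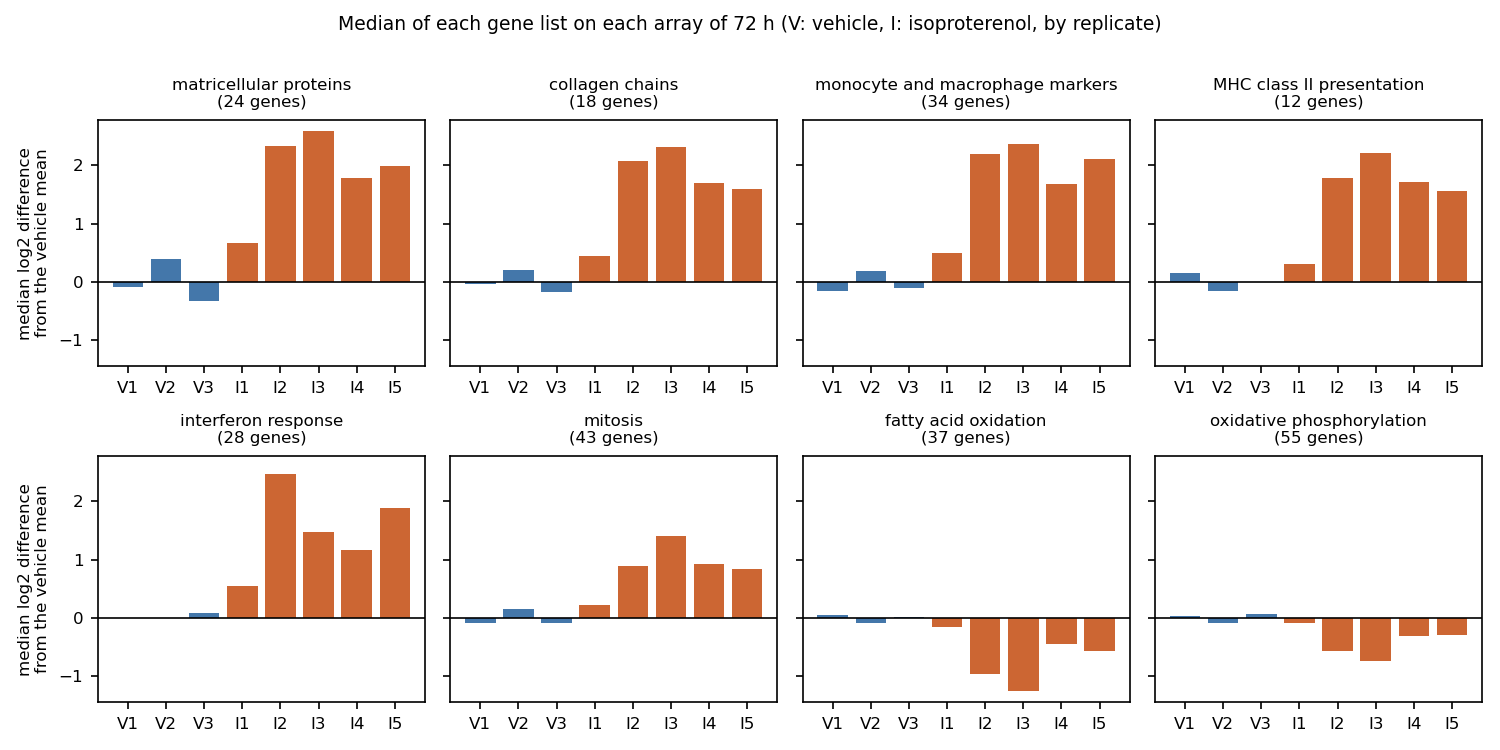
Median log2 difference from the vehicle mean over the members of 8 gene lists, on each of the 8 arrays at 72 h. Isoproterenol replicate 1 is nearest to the vehicle arrays in each list, isoproterenol replicate 2 is highest for interferon genes (2.47) and isoproterenol replicate 3 for collagen chains (2.31) and lowest for fatty acid oxidation genes (-1.25).

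Genes of mitosis and of DNA replication rose in part. Of 43 mitosis genes 24 rose (55.8%, median 0.84), and of 33 DNA replication genes 8 rose (24.2%, median 0.37). Leaving out vehicle replicate 3 left 12 mitosis genes, and leaving out vehicle replicate 1 left 14. The replication count was 5 without isoproterenol replicate 2, 3 without isoproterenol replicate 3 or vehicle replicate 1, and 1 without vehicle replicate 3.

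Promoters of mitotic genes often carry a cell cycle genes homology region, the site of the repressor complex DREAM. That element, searched as TTTGAA on both strands in the same window, was present in 20 of the 37 tested mitosis genes with a promoter in the table (54.1%), in 13 of the 21 called higher among them, and in 4402 of 27457 promoters in all (16%). The CCAAT box, searched as CCAAT, was in 30 of the 37 (81.1%) and in 9416 of all (34.3%). Stretches from 3 risen genes are shown with the TTTGAA match (or TTCAAA, its reverse) in capitals, at chr1:199952657-199952722 on the - strand (Mki67), chr15:22502207-22502272 on the + strand (Cdkn3) and chr2:111966746-111966811 on the - strand (Ect2).
Mki67: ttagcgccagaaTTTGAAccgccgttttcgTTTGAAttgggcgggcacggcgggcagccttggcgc
Cdkn3: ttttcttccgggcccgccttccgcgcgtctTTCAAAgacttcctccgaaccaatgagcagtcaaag
Ect2: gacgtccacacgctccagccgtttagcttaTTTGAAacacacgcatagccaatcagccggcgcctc

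Mki67 (1374775_at), the antigen of dividing cells, read 22.8, 98.4 and 29.3 in vehicle and 64.8, 243, 369, 190 and 256 in isoproterenol. Vehicle replicate 2 lay above isoproterenol replicate 1, and the other 4 isoproterenol arrays lay above every vehicle array. The change was 1.87 ± 0.37 (limma adjusted p = 0.000736). Top2a (1388650_at), the topoisomerase of dividing cells, read 29, 35.3 and 38.8 in vehicle and 42.1, 83.1, 154, 66.7 and 101 in isoproterenol, a rise of 0.98 ± 0.23 without overlap.

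Cdkn3, a phosphatase of cyclin-dependent kinases, and Ect2, an exchange factor of cytokinesis, rose 3.61-fold and 2.75-fold, each from vehicle levels with arrays under the floor, and their folds were 6.92 and 4.57 with a constant of 1. Of the replication genes, the helicase subunit Mcm6 rose 2.06-fold and the primase Prim1 1.95-fold. Prim1 had a limma adjusted p of 0.052 without vehicle replicate 3. Cdk1, the mitotic kinase, read 22.7 to 46 in vehicle and 29.6 to 128 in isoproterenol and did not pass (0.89 ± 0.34, limma adjusted p = 0.0695). The tissue holds several dividing cell types, and which cells divided was not measured.

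Hypertrophy and fetal genes rose in 10 of 23 (43.5%, median 0.42). Nppa (1367564_at), atrial natriuretic peptide, read 920, 2221 and 618 in vehicle and 3840, 9145, 10275, 9906 and 10275 in isoproterenol. The groups did not overlap, vehicle replicate 2 was the highest of its group, and the rise was 7.47-fold (2.90 ± 0.49, limma adjusted p = 0.000115). Myh7 (1386993_at), the fetal beta myosin heavy chain, read 2747, 5987 and 2529 in vehicle and 10275, 11046, 11828, 10541 and 11828 in isoproterenol. Here isoproterenol replicate 1 lay with its group rather than near vehicle, and the change of 1.67 ± 0.29 was 1.71 without it.

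Mybpc2, a myosin-binding protein of fast muscle, rose 4.48-fold by its brightest probe set and Tubb6, a beta tubulin, 3.67-fold. Tuba8, an alpha tubulin, was the 1 listed gene that fell (-0.95 ± 0.21). Nppb, brain natriuretic peptide, read 2241 to 2695 in vehicle and 2404 to 4027 in isoproterenol and did not pass (0.42 ± 0.23, limma adjusted p = 0.223). Myh6 did not pass either (-0.06 ± 0.07, limma adjusted p = 0.632), and its 2 probe sets ranged from -0.796 to -0.061. With arrays centred on medians it was called lower (-0.393, limma adjusted p = 0.0372). Without normalization it was not (-0.039, limma adjusted p = 0.93).

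Of 22 sarcomere genes 2 fell (9.09%, beside 8.71% of all genes), Tcap, telethonin (-0.42 ± 0.15), and Mylk3, the cardiac myosin light chain kinase (-0.42 ± 0.13). Both lost the call in 5 of the 8 fits without 1 array, with highest limma adjusted p values of 0.149 for Tcap without vehicle replicate 3 and 0.0949 for Mylk3 without vehicle replicate 1. The count lower was 4 without isoproterenol replicate 1 and 0 by limma without isoproterenol replicate 2 or 3 or vehicle replicate 1 or 3, beside 4 at an unadjusted p under 0.05 over all arrays. With arrays centred on medians 5 of the 22 were lower. The list had a median of -0.091, and -0.353 with arrays centred on medians.

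Of 22 calcium handling genes 5 fell (22.7%, median -0.239). S100a1, a calcium-binding enhancer of contraction, read 263 to 396 in vehicle and 85.1 to 223 in isoproterenol and fell by 1.12 on the log2 scale without overlap. Trdn, triadin (-0.93 ± 0.20), Asph, whose locus also encodes junctin (-0.83 ± 0.16), Cacna1c, the L-type calcium channel (-0.64 ± 0.19), and Jph2, junctophilin (-0.49 ± 0.17), made up the rest. Cacna1c and Jph2 were not called without some single arrays (highest limma adjusted p 0.0834 and 0.167, both without vehicle replicate 3), and the probe sets of Asph ranged from -1.54 to 0.598. The count was 3 without isoproterenol replicate 3, vehicle replicate 1 or vehicle replicate 3, and 8 without isoproterenol replicate 1. Atp2a2, the calcium pump of the reticulum (-0.04 ± 0.07), and Pln, its inhibitor phospholamban (-0.04 ± 0.08), did not pass, with limma adjusted p values of 0.752 and 0.785. Their probe sets ranged from -0.493 to 0.061 and from -0.148 to 0.289. With arrays centred on medians both were called lower (-0.425 and -0.383, limma adjusted p 0.0471 and 0.0448). Without normalization neither was (-0.071 and -0.029, limma adjusted p 0.862 and 0.95).

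Potassium, sodium and pacemaker channel genes fell in 9 of 24 (37.5%, median -0.493). Kcnk2, a stretch-sensitive background potassium channel, read 292, 291 and 242 in vehicle and 210, 73.5, 36.1, 120 and 118 in isoproterenol, a 2.54-fold fall without overlap, although its probe sets ranged from -1.34 to 0.086. Kcnk3, an acid-sensitive relative, fell 2.18-fold with probe sets from -1.17 to 0.102, and Kcnj11, the pore of the ATP-sensitive channel, 1.90-fold with overlapping groups. The count was 4 without isoproterenol replicate 3 or vehicle replicate 1 and 5 without vehicle replicate 3.

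Of 30 genes of the receptor pathway that isoproterenol acts on, 5 were called higher and 6 lower, with a median of -0.125. The shares of all genes were 13.3% higher and 8.71% lower. With arrays centred on medians 6 of the 30 were higher and 1 lower, and without normalization 6 were higher and 0 lower. Adrb1, the main receptor of the heart muscle, read 26.6 to 97.1 in vehicle and 29.8 to 42.9 in isoproterenol and did not pass (-0.40 ± 0.22, limma adjusted p = 0.226). Prkaca, the catalytic subunit of the cyclic AMP-dependent kinase, read 899 to 1564 and 439 to 857 and fell 2.22-fold without overlap. Grk6, a receptor kinase, rose 2.74-fold by a probe set that may also read relatives. The other four rises were Pde3b and Pde10a, phosphodiesterases (1.01 ± 0.27 and 0.68 ± 0.20), Rgs2, a brake on G protein signals (0.93 ± 0.27), and Arrb2, an arrestin (0.78 ± 0.26). Each of these 4 lost its call without some single arrays, and 1 of the 5 rises was called without vehicle replicate 3, 2 without vehicle replicate 1 and 3 without isoproterenol replicate 2. Of the 6 falls 3 were called without isoproterenol replicate 3, vehicle replicate 1 or vehicle replicate 3. The highest limma adjusted p values, all without vehicle replicate 3 except that of Rgs2 without vehicle replicate 1, were 0.0954 for Pde3b, 0.0737 for Pde10a, 0.0798 for Rgs2 and 0.143 for Arrb2.

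Immediate early genes were higher in 7 of 29 (24.1%, median 0.30), with 4 without isoproterenol replicate 5 or vehicle replicate 1 and 3 without vehicle replicate 3. Fos (1375043_at) read 67.4, 98.9 and 57 in vehicle and 495, 204, 298, 210 and 562 in isoproterenol. Here isoproterenol replicates 1 and 5 were the highest, and the rise of 1.94 ± 0.44 (limma adjusted p = 0.0023) was 1.79 without replicate 1. Egr2 rose 3.59-fold and Atf3 2.90-fold, both from dim vehicle levels. Nr4a3, which responds to adrenergic stimulation within hours, did not pass (0.22 ± 0.40, limma adjusted p = 0.77), with vehicle replicate 1 at 133 above all other arrays.

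Mitochondrial fuel genes were lower on the isoproterenol arrays. Of 37 fatty acid oxidation genes 29 fell (78.4%, beside 8.71% of all genes), with a median of -0.719. The counts were 35 of 55 for oxidative phosphorylation (63.6%, median -0.402), 12 of 18 for the citric acid cycle (66.7%, median -0.457) and 13 of 20 for the breakdown of branched-chain amino acids (65.0%, median -0.727). With arrays centred on their medians the counts were 17, 29, 10 and 7. Without normalization limma called 0 in each of the 4 lists, where 2 fatty acid oxidation genes and 1 branched-chain gene had an unadjusted p under 0.05, and the medians were -0.259, -0.117, -0.17 and -0.226.

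These counts also moved with single arrays. Without isoproterenol replicate 1 they were 34, 47, 16 and 19. Leaving out isoproterenol replicate 2, isoproterenol replicate 3, vehicle replicate 1 or vehicle replicate 3 gave 18, 17, 13 and 19 for fatty acid oxidation, 22, 18, 14 and 14 for oxidative phosphorylation and 8, 7, 6 and 7 for the branched-chain genes. The lists' median difference on isoproterenol replicate 1 was -0.145 for fatty acid oxidation, against -0.443 to -1.25 on the other 4.

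Hadh (1370237_at), a dehydrogenase of beta-oxidation, read 4234, 3792 and 4546 in vehicle and 3268, 1370, 975, 1794 and 1995 in isoproterenol. Every isoproterenol array lay below every vehicle array, replicate 3 lowest and replicate 1 nearest. The change was -1.26 ± 0.22 (limma adjusted p = 0.000158), and -0.94 without normalization (limma adjusted p = 0.06).

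Cd36 (1367689_a_at), which carries fatty acids into the cell, read 2673, 1826 and 2362 in vehicle and 1676, 624, 548, 1249 and 1341 in isoproterenol, a 2.25-fold fall without overlap. Ehhadh, an enzyme of peroxisomal oxidation, fell 2.44-fold to levels with 3 isoproterenol arrays under the floor. Ppara, the transcription factor of these genes, read 33.7 to 50.7 in vehicle and 5.65 to 28.4 in isoproterenol, without overlap, and did not pass (-0.88 ± 0.35, limma adjusted p = 0.0861). Ucp3, a mitochondrial carrier, read 55 to 144 and 21.7 to 68.4, and its fall of 0.92 on the log2 scale was lost in 3 of the 8 fits without 1 array, with a change of -0.58 and the highest limma adjusted p of 0.223 without vehicle replicate 1.

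The falls of the other fuel genes were smaller. Ivd, of leucine breakdown, fell 2.08-fold, Mccc1, of the same pathway, 1.94-fold, Ndufv3, a subunit of complex I, 1.66-fold, Suclg2, of the citric acid cycle, 1.51-fold and Idh3b 1.46-fold. Ndufv3 had a limma adjusted p of 0.0512 without vehicle replicate 1. Of 23 glycolysis genes 1 rose (4.35%, beside 13.3% of all genes), the platelet-type phosphofructokinase Pfkp (1.07 ± 0.30). In that list 4 fell (17.4%, beside 8.71%): the insulin-regulated glucose transporter Slc2a4 (-1.01 ± 0.23), hexokinase Hk2 (-0.91 ± 0.27), and the muscle enzymes Pgam2 (-0.81 ± 0.20) and Pfkm (-0.60 ± 0.15). Pfkp, Hk2 and Pfkm were not called without some single arrays, with highest limma adjusted p values of 0.107 and 0.145 without vehicle replicate 3 and 0.0562 without vehicle replicate 1, which left 2 falls without vehicle replicate 1.

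The deepest falls of single genes were of other kinds. Prkaa2 (1369654_at), the catalytic subunit of AMP-activated kinase found in muscle, read 2555, 1623 and 2743 in vehicle and 705, 734, 372, 742 and 452 in isoproterenol. The groups stood well apart, and isoproterenol replicate 1 lay among its own group. The change was -1.93 ± 0.34 (limma adjusted p = 0.00017), and -1.44 without normalization (limma adjusted p = 0.005).

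Slc3a1, a subunit of an amino acid transporter, read 329, 430 and 268 in vehicle and 98.4, 92.8, 56.4, 98.8 and 55.2 in isoproterenol, a 3.74-fold fall with all 5 arrays together. Among the 15 deepest falls without overlap, genes of lipid and small-molecule metabolism were Lpin1, a phosphatidate phosphatase (2.70-fold), Fitm2, of lipid droplet formation (2.57-fold), Ldhd, a lactate dehydrogenase (2.60-fold), and Sult1a1, a sulfotransferase (2.56-fold). Apln, the ligand of the apelin receptor, read 330, 438 and 355 in vehicle and 285, 89.6, 62.6, 114 and 152 in isoproterenol, a 2.76-fold fall in which isoproterenol replicate 1 stayed near vehicle.

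The rest of those 15 were Klhl33 (2.95-fold), Tsc22d2 (2.94-fold), Tmem116 (2.82-fold), Phlda1 (3.03-fold), Cped1 (2.74-fold), LOC100909739 (3.48-fold), LOC100909396 (2.79-fold) and Kcnk2. Phlda1 was not called without vehicle replicate 1 or without vehicle replicate 3 (limma adjusted p 0.0826 and 0.159). Cped1 read 45.5 to 89.2 in vehicle and 0.895 to 32.9 in isoproterenol, with 3 isoproterenol arrays under the floor, so the size of its fall depends on the added constant.

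Vascular genes fell in part. Of 19 endothelial markers 4 fell (21.1%, median -0.334), Fabp4 (-0.88 ± 0.23), the water channel Aqp1 (-0.70 ± 0.20), the receptor Tie1 (-0.68 ± 0.20) and the transcription factor Erg (-0.56 ± 0.15). All 4 lost their call in some fit without 1 array, with highest limma adjusted p values of 0.0781 without vehicle replicate 1 for Fabp4, 0.124 without vehicle replicate 3 for Aqp1, 0.0703 without isoproterenol replicate 3 for Tie1 and 0.0585 without vehicle replicate 2 for Erg. The count was 7 without isoproterenol replicate 1, 2 without isoproterenol replicate 3 and 1 without vehicle replicate 1 or 3, and without normalization the list median was 0.25 and Erg changed by 0.051. The summed intensity of the 19 markers was 14979 to 16236 on the vehicle arrays and 9088 to 15584 on the isoproterenol arrays. Vegfa, the main endothelial growth factor, read 928 to 1332 and 362 to 904 and fell 1.82-fold without overlap.

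Of 28 genes of protein folding in the endoplasmic reticulum 6 rose (21.4%, median 0.35), and 10 without isoproterenol replicate 1, among them Edem1 (2.66-fold), Pdia4 (2.24-fold) and Ppib (2.07-fold). Hmox1, haem oxygenase, read 50.8 to 102 in vehicle and 67.8 to 277 in isoproterenol and did not pass (0.96 ± 0.37, limma adjusted p = 0.0719). Of 27 genes of oxidative stress and metallothioneins 2 rose (7.41%, beside 13.3% of all genes), the glutathione peroxidases Gpx3 (1.89-fold) and Gpx7 (3.17-fold). In the same list 4 fell (14.8%, beside 8.71%), the quinone reductase Nqo1, the superoxide dismutase Sod2, catalase (Cat) and the glutathione transferase Gstm1. The count lower was 7 without isoproterenol replicate 1, 2 without isoproterenol replicate 2 and 1 without isoproterenol replicate 3 or vehicle replicate 1 or 3. Of 20 cytosolic heat shock genes 3 fell, Hspa4l, Hsph1 and Hspd1, and 1 without isoproterenol replicate 3 or vehicle replicate 1. The medians of these lists were -0.088 and -0.085, and 0.253 and 0.355 without normalization, where Nqo1 changed by 0.147 and Hspd1 by 0.013. None of the 7 falls was called without normalization or with arrays centred on medians.

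The sampling at 24 h, with 4 isoproterenol and 3 vehicle arrays of its own, shows which parts of the 72 h picture were already present. At 24 h, 1247 genes were higher (10.0%) and 895 lower (7.19%). The 609 genes higher at both times were 36.9% of those higher at 72 h and 48.8% of those higher at 24 h, and the 365 lower at both were 33.6% and 40.8%. The difference between the effects, 72 h minus 24 h, was called in 514 probe sets (2.12%; 1.32% more positive at 72 h and 0.795% more negative), and in 338 genes (2.71%), 229 that were more positive at 72 h (1.84%) and 109 that were more negative (0.875%).

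Interferon genes differed between the times. At 24 h 1 of 28 was higher, 1 was lower and the median was -0.119, and the difference was called toward 72 h in 14 of 28. Among these were Mx1 (3.72, limma adjusted p = 0.0114), Isg15 (3.04, limma adjusted p = 0.0179), Irf7 (2.83, limma adjusted p = 0.00334), Ifit3 (2.81), Oas1a (2.49) and Gbp2 (1.85). Ddx60, which is not among the 28, also differed toward 72 h (3.00). Isg15, Ifit3 and Gbp2 were not called without some of the 15 single arrays (highest limma adjusted p 0.0693, 0.0759 and 0.0538, the first and last without vehicle replicate 1 of 72 h). Mx1, Irf7, Oas1a and Ddx60 were called in all 15 such fits.

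Many matrix genes were also higher at 24 h. Of 24 matricellular genes 9 were higher at 24 h (median 0.908). The effect differed toward 72 h in 5 of the 24 and the other way in 1, beside 1.84% and 0.875% of all genes. Of 18 genes of collagen folding and crosslinking 7 were higher at 24 h (median 0.629). Only Loxl1 of the 18 differed toward 72 h, and it was not called at 24 h (0.59, limma adjusted p = 0.413). Postn rose by 3.68 at 24 h and did not pass the test of the difference (1.56, limma adjusted p = 0.372). Of 17 fibroblast markers 5 were lower at 24 h (median -0.432), Dpt, Gsn, Scara5, Dcn and Vtn. Collagen chains had a median of 0.53 at 24 h with 6 of 18 higher, and 5 of the 18 differed toward 72 h, as did 5 of 9 leucine-rich proteoglycans, 7 of 18 elastic fibre and basement membrane genes, 7 of 17 fibroblast markers and 6 of 14 complement genes. The 5 listed collagens, which do not include Col8a2, were Col14a1, a fibril-associated chain (-0.69 at 24 h and 1.83 at 72 h), Col16a1 (0.14 and 1.92), Col6a1, of microfibrils (-0.07 and 1.48), Col3a1 (0.15 and 1.09) and Col15a1, of basement membranes (-0.66 and 0.13). Of these differences Col6a1 and Col14a1 were called in all 15 fits without 1 array, and the highest limma adjusted p was 0.0538 for Col16a1, 0.131 for Col3a1 and 0.0926 for Col15a1. The 5 proteoglycans were Aspn, Bgn, Lum, Dcn and Omd, of which Dcn (-0.68 at 24 h) and Omd, osteomodulin (-1.28), had fallen at 24 h. Fndc1 changed by -0.82 at 24 h and 3.00 at 72 h (difference 3.83, limma adjusted p = 0.000214). Pltp fell by 1.07 on the log2 scale at 24 h and rose by 2.57 at 72 h, a difference of 3.65 (limma adjusted p = 1.38e-06). Cthrc1 (difference 3.77), Clec3b (3.07), Col8a2 (3.06), Bgn (2.16), Igfbp6 (2.21) and C1qa (2.23) had effects at 24 h between -0.53 and 0.72 that did not pass. The difference of Cthrc1 was not called without vehicle replicate 3 of 72 h or without vehicle replicates 1 or 2 of 24 h, with a highest limma adjusted p of 0.0941.

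Many macrophage genes were already higher at the earlier time. At 24 h 21 of 34 macrophage markers were higher (median 1.31), as were 18 of 28 lipid-handling genes and 8 of 12 class II genes. The difference toward 72 h was called in 3 of the macrophage markers, Adgre1, the F4/80 antigen of mature macrophages, and the complement subunits C1qa and C1qc. Adgre1 changed by -0.30 at 24 h and 1.84 at 72 h (difference 2.13, limma adjusted p = 0.00679), and C1qc by -0.13 and 1.33 (difference 1.45, limma adjusted p = 0.0109). All 3 differences were called in each of the 15 fits without 1 array. Gpnmb had changes of 4.67 at 24 h and 4.21 at 72 h. Spp1 went the other way, with 7.65 at 24 h and 3.21 at 72 h (difference -4.44, limma adjusted p = 0.0021), the largest negative difference of all genes called.

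Genes whose effect was more negative at 72 h included growth genes that had risen at 24 h. Ribosome biogenesis genes were higher in 11 of 24 at 24 h (median 0.61) and had a median of 0.022 at 72 h, and 6 of 24 differed, among them Nhp2 (-1.36). DNA replication genes were higher in 21 of 33 at 24 h (median 0.83), and 3 of 33 differed, the helicase subunit Mcm5 (1.16 at 24 h and 0.11 at 72 h), the licensing factor Cdt1 (1.52 and 0.27) and Hells (1.77 and 0.21). Each of these 3 lost that call in some fit without 1 array, with highest limma adjusted p values of 0.0773, 0.0545 and 0.104. Fstl3, an activin-binding protein, changed by 2.26 and 0.06, Fabp5, a fatty acid-binding protein, by 1.42 and -0.33, and Ifrd1 by 1.39 and -0.21. Pdk4, which blocks glucose oxidation, changed by 0.87 at 24 h and fell by 1.06 on the log2 scale at 72 h. Its groups overlapped at 72 h, and both that fall and the difference were lost without vehicle replicate 1 of 72 h (limma adjusted p 0.0789 and 0.0542).

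Part of the fuel genes were already lower at 24 h, when 7.19% of all genes were lower. The counts were 15 of 37 fatty acid oxidation genes (median -0.539) and 13 of 20 branched-chain genes (median -0.711). For oxidative phosphorylation the count was smaller, 7 of 55 (median -0.203), and nearer the share of all genes. Few of them differed between the times, as did 2.71% of all genes: 1 of 37 listed fatty acid oxidation genes did, toward lower at 72 h, and this was Pdk4.

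**Figure D5:**
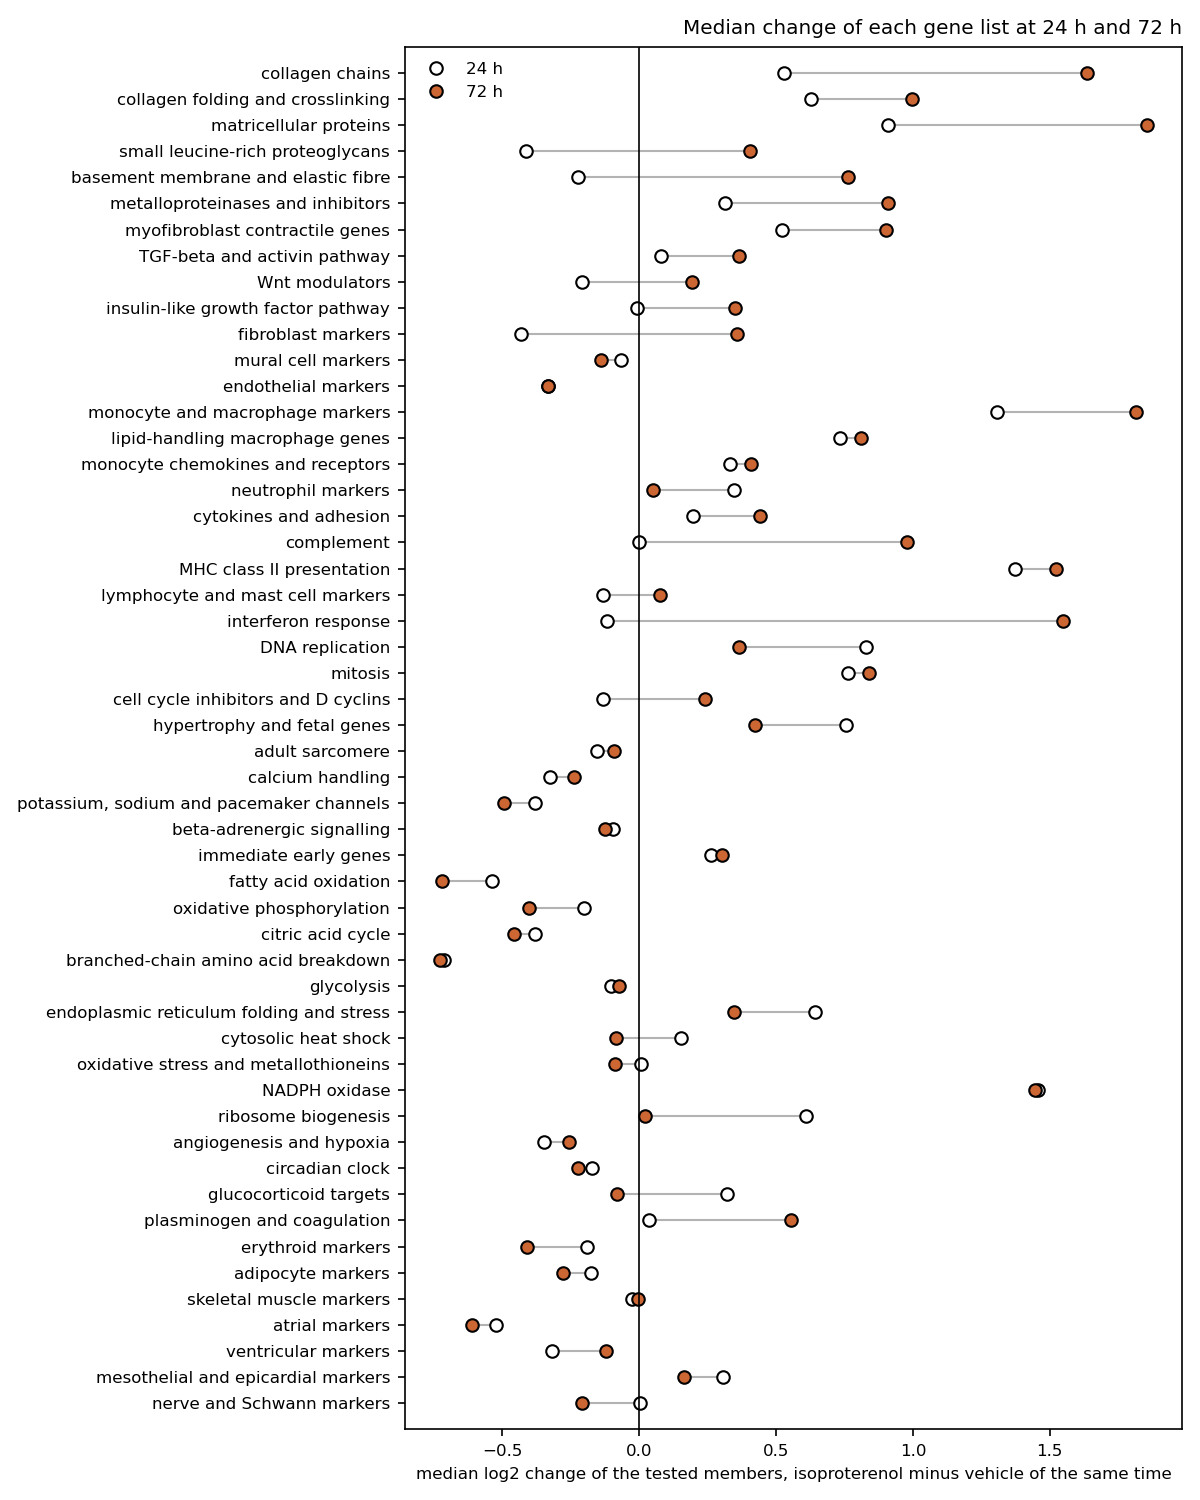
Median log2 change of each gene list against vehicle at 24 h (open points) and at 72 h (filled points), each from its own vehicle arrays. Interferon genes move from -0.119 to 1.55 and collagen chains from 0.53 to 1.64, ribosome biogenesis genes from 0.61 to 0.022, and branched-chain amino acid genes stay at -0.711 and -0.727.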

How the data were processed

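Heart total RNA was stored in RNAlater, extracted with an RNeasy kit and hybridised as biotinylated cRNA, per the labels' protocols. The authors deposited 1 table of linear probe set intensity for 31099 probe sets on 30 arrays; the step from probes to probe sets and its scaling are not stated in the sources used here, while array medians at 72 h ran from 22.5 to 55.5. Values were taken as log2(intensity + 16) and quantile normalized. Probe sets were tested if at or above the 40th percentile of deposited values (intensity 23, the floor) on at least 3 arrays, without the 57 control probe sets, leaving 24292. Limma 3.58.1 in R 4.3.3 was fitted to 8 groups of treatment and time over 30 arrays (22 residual degrees of freedom, intensity trend, two-sided, Benjamini-Hochberg). Python 3.11.15 with pandas 2.3.3 and scipy 1.17.1 made the summaries. Arrays are the only depth: their number limits precision.

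Gene symbols came from the platform annotation, updated through RefSeq: 20826 probe sets had 1 gene, 436 had several and 9780 were not listed. Each gene is its brightest tested probe set. In 10 of the 3700 genes with several probe sets, these were called in opposite directions. Probe sets with _s_at or _x_at names (RT1-Db1, Trdn, Plaur, Igfbp6, Grk6, Aif1, Kcnj11 and Pdgfrb) may read near-identical relatives. Genes were named by rule: the 15 largest non-overlapping rises and falls, up to 4 called and 2 uncalled members of each list, fixed cardiac and repair genes, and the 8 largest differences from 24 h in each direction. Others that complete a short count or carry a shown sequence (Timp3, Timp4, Vtn, Ncf1, Tuba8, Jph2, Pfkm, Oas1a, Gbp2, Htra1, Igf2r, Igfbp7, Rgs2, Pde10a, Arrb2, Prelp, Col6a1, Col14a1, Col15a1, Col16a1, Omd, Adgre1, C1qc, Mcm5, Cdt1, Hells, Dpt, Scara5, Myl4, Tbx5, Kcnj3, Stard10 and the stress genes that fell among them) were chosen after their values were seen. The lists and the arrays were chosen with earlier results of these data known. Same-numbered vehicle and isoproterenol arrays at 72 h had deviations from their group means that correlated at 0.0448, 0.125 and -0.0587, so the numbers were not taken as pairs.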

Additional observations from a re-analysis of the deposited data

Results flagged for a closer look

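Isoproterenol replicate 1 stood below the other 4 isoproterenol arrays for 32 results, and above them for Myl4 (0.753), by a gap test in which chance marks about 1 group in 20; the ratio given is its gap to the nearest other array over the range of the group. Among matrix genes the ratio was 0.939 for Postn, 0.865 for Cthrc1, 0.844 for Lox, 0.794 for Col1a1, 0.853 for Col3a1, 0.827 for Col1a2, 0.756 for Col5a2, 0.723 for Col16a1, 0.766 for Fn1, 0.809 for Fndc1, 0.756 for Loxl1, 0.771 for P4ha3, 0.796 for Tnc, 0.914 for Aspn and 0.725 for Bgn. Among macrophage and immune genes it was 0.889 for Gpnmb, 0.725 for Mpeg1, 0.786 for Clec7a, 0.744 for Spp1, 0.722 for Cd68, 0.78 for Lgals3, 0.952 for Lyz2, 0.783 for Aif1, 0.812 for Apoe, 0.9 for Ccl6, 0.775 for RT1-Da and 0.712 for the median of the lipid-handling macrophage genes. It was also 0.757 for Gpx7, 0.804 for Car3, 0.882 for Nppa, 0.779 for Igf1 and 0.727 for Mcm5. These results share 1 array and are not independent of each other. They stand among 213 named genes and 52 gene lists. Isoproterenol replicate 1 was already known from these data to lie nearer the vehicle arrays, so the ratios describe its place and are not a further test of it.

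The effect of isoproterenol at 72 h differed from that at 24 h in 58 named genes by limma's test of the difference (adjusted p under 0.05), of which 27 were called in every fit without 1 of the 15 arrays. The difference, 72 h minus 24 h on the log2 scale, was positive among interferon genes for Mx1 (3.72), Isg15 (3.04), Ddx60 (3.0), Irf7 (2.83), Ifit3 (2.81), Oas1a (2.49) and Gbp2 (1.85), and for the myeloid genes Slfn4 (2.73), Fcrl2 (1.92), Ccl6 (2.08), Adgre1 (2.13), C1qa (2.23) and C1qc (1.45). It was positive for the complement gene Cfd, also listed as an adipocyte marker (2.46), and for Gpx7 (1.39). Among matrix genes it was positive for Cthrc1 (3.77), Fndc1 (3.83), Col8a2 (3.06), Col14a1 (2.52), Col16a1 (1.78), Col6a1 (1.55), Col3a1 (0.94), Col15a1 (0.79), Loxl1 (2.4), Aspn (2.82), Bgn (2.16), Lum (1.03), Dcn (1.04), Omd (1.37), Mmp14 (1.72) and Adamts5 (1.82). Among other secreted and fibroblast genes it was positive for Pltp (3.65), Clec3b (3.07), Dpt (1.67), Scara5 (2.02), Fap (1.89), Pi16 (1.75), Tgfb3 (1.41), Ltbp3 (2.26), Sfrp4 (2.32), Sfrp2 (2.48), Igf1 (1.54), Igfbp6 (2.21), Igfbp7 (0.87) and Serpinf1 (1.39). It was negative for Spp1 (-4.44), Fstl3 (-2.2), Ddx3x-ps1 (-1.95), Pdk4 (-1.93), Sult1a1 (-1.8), Fabp5 (-1.75), LOC102547700 (-1.63), Ifrd1 (-1.61), Tsc22d2 (-1.59), Hells (-1.56), Nhp2 (-1.36), Cdt1 (-1.25) and Mcm5 (-1.06). At 72 h itself, Ddx3x-ps1 fell by 0.86 on the log2 scale, a call lost without vehicle replicate 1 or 3 (limma adjusted p 0.0709 and 0.126). The smallest margins over single arrays were those of Fcrl2, Lum and Fap, with highest limma adjusted p values of 0.22, 0.221 and 0.164.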

How the results depend on the processing

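The 4333 probe sets called at 72 h became 7200 with array weights, 2380 without normalization (2351 higher, 29 lower) and 2531 with the arrays compared alone. They were 3061 with arrays centred on medians (2352 and 709) and 3912 with cyclic loess (2436 and 1476), beside 2277 and 2056 in the reported fit. Without 1 array the count ran from 2418 (without vehicle replicate 3) to 5648 (without isoproterenol replicate 1), and was 2428 without vehicle replicate 1 and 2820 without isoproterenol replicate 3. With the replicate block it was 2934. The 514 probe sets whose effect differed from 24 h became 1979 with array weights, 54 without normalization, 129 with the arrays compared alone and 137 with the replicate block. Without 1 array of 72 h they ran from 185 (vehicle replicate 3) to 1110 (vehicle replicate 2), with 186 for vehicle replicate 1, 341 for isoproterenol replicate 2 and 882 for isoproterenol replicate 1. Without 1 array of 24 h, an alternative added after seeing the data, they ran from 220 (vehicle replicate 2) to 771 (isoproterenol replicate 3), with 306 for isoproterenol replicate 2 and 312 for vehicle replicate 3. The causes were not tested. The constants 1 and 64, no filter, a filter at the 60th percentile, no trend and robust variance kept both counts within 1.5 times, as did a filter on normalized values, added after seeing the data. Of 184 called genes named here, 142 were called in every fit without 1 array. Over all alternatives 4470 gene results gave 4123 on the same side of the threshold, 304 past it no longer, 39 newly past it, and 4 with the sign turned, Vtn (0.028), Erg (0.051), Hspd1 (0.013) and Nqo1 (0.147) without normalization. Intensities near the floor limit the folds of dim genes.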

Other observations

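Genes of the plasminogen and coagulation system, which dissolves fibrin in healing tissue, were higher in 7 of 15 at 72 h (46.7%, median 0.55), beside 13.3% of all genes. Anxa2, a cell surface receptor of plasminogen and its activator, read 899, 1252 and 780 on the vehicle arrays and 1456, 3321, 3962, 2620 and 2620 on the isoproterenol arrays. The groups did not overlap, and the rise was 1.46 ± 0.20 by its brightest probe set (limma adjusted p = 1.26e-05). Serpinf1, pigment epithelium-derived factor, a member of the same inhibitor family, rose 2.60-fold without overlap. Plaur, the urokinase receptor, read 4.62 to 6.57 on the vehicle arrays, all under the floor, and 16.9 to 59.2 on the isoproterenol arrays, and its 2.72-fold rise was 6.67-fold with a constant of 1.

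Summed intensities of the marker lists for other cells of the tissue were compared by their ranges. Erythroid markers were 5778 to 6467 on the vehicle arrays and 3692 to 6124 on the isoproterenol arrays, adipocyte markers 1793 to 2125 and 1428 to 2009, nerve and Schwann markers 1360 to 1472 and 880 to 1416, and mesothelial markers 223 to 338 and 175 to 390. Each of these ranges overlapped between the groups. The sarcomere genes summed to 136073 to 137205 on the vehicle arrays and 115469 to 135603 on the isoproterenol arrays, which did not overlap, and the ventricular markers to 25372 to 25740 and 19765 to 25015. The part of these sums in the falls of muscle genes was not tested.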
